A study of Mus musculus with 11 samples.

Results

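Mouse embryonic retinas that lacked both Six3 and Six6 (DKO, 3 libraries) were compared with retinas that lacked Six6 alone (Six6KO, 2 libraries), so the comparison reads what the added loss of Six3 does where Six6 is already gone. The libraries were chosen by the start of their column names in the deposited count table, and these 5 are part of 11 libraries in the series. Both groups were of the NMRI strain, carried floxed Six3 alleles (Six3F/F) and were homozygous null for Six6 (Six6-/-). DKO embryos also carried CAGGCre-ERTM, which drives a tamoxifen-activated Cre recombinase, fused to a mutant mouse oestrogen receptor, in most cells of the embryo and not in the retina alone. Six6KO dams were dosed as well: each dam received tamoxifen (0.15 mL of a 20 mg/mL stock) at E10.5 and again at E11.5, and retinas were taken at E13.5. The other 6 libraries were the same contrast with Six6 intact, 3 of Six3F/F retinas (WT) and 3 of Six3F/F retinas with CAGGCre-ERTM (Six3KO). Each library came from a pair of retinas, and 1 further Six6KO sample had been removed by the submitters for high duplication. Because Cre was present in DKO and absent from Six6KO, the loss of Six3 and the presence of active Cre cannot be told apart in this comparison.

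Six3 and Six6 encode closely related homeodomain transcription factors of the sine oculis family, which act as repressors and activators in the anterior neural plate and the optic vesicle. Six3 is needed early for forebrain and retina specification, and Six6 is expressed in the neural retina, hypothalamus and pituitary. Retinal progenitors divide, keep a set of eye-field factors such as Pax6, Rax and Lhx2, and give rise to ganglion cells, horizontal and amacrine cells and photoreceptors, while the rim of the optic cup, the ciliary margin, is patterned by Wnt signals from its periphery.

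Reads in genes ranged from 11965016 to 12659540 in the DKO libraries and were 8867708 and 9166054 in the Six6KO libraries, so the single-library precision was lower in Six6KO. The DKO libraries lay close together, with Spearman correlations across genes of 0.984 to 0.992, and the Six6KO pair correlated at 0.956. Levels are given in CPM, a gene's reads relative to all reads in genes of the library, after scaling for library composition. The retinal markers were present in all 5 libraries. Pax6 read 1079, 1064 and 907 CPM in DKO libraries rh010, rh011 and rh021 and 672 and 511 CPM in Six6KO libraries rh007 and rh020, and Rax stood between 203 and 288 CPM in all 5. The tissue around the retina was less represented in DKO than in Six6KO. The summed level of 29 periocular mesenchyme genes ranged from 793 to 912 CPM in DKO and from 3280 to 5020 CPM in Six6KO, and Col1a1 read 5.57, 17.6 and 11.6 against 430 and 92.9 CPM. The lens crystallin gene Cryaa read 3.52, 62.8 and 2.54 CPM in DKO, and 9.98 (rh007) and 3810 CPM (rh020) in Six6KO, so the Six6KO libraries also differed from each other in lens content. The labels give no embryo sex; Ddx3y, on the Y chromosome, read 71.5 to 89.7 CPM in DKO library rh011 and both Six6KO libraries, and 0 and 0.159 CPM in the other DKO libraries.

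Six3 (chromosome 17, 85613608 to 85629302, plus strand) read 57.3, 56.2 and 98.2 CPM in DKO and 307 and 142 CPM in Six6KO. Every DKO library was below both Six6KO libraries, and the fitted log2 difference was -1.67 ± 0.46 (SE), which did not pass the threshold over all genes (adjusted p = 0.168, edgeR quasi-likelihood test). The deleted part of Six3 is not given in the labels, and Six3 exons overlap those of the antisense transcript Six3os1, so the reads left in DKO do not measure how much intact Six3 RNA remained. Six3os1 read 1521, 1493 and 1221 CPM in DKO and 704 and 429 CPM in Six6KO (log2 1.32 ± 0.32, adjusted p = 0.131). Six6, null in both groups, read 56.0, 52.8 and 99.8 against 131 and 76.8 CPM, and the groups overlapped; the antisense gene 4930447C04Rik shares exon sequence with Six6, and some of these reads may be its own. DKO library rh021 had the highest Six3 and the highest Six6 reading of its group. Esr1, whose sequence is part of the Cre fusion, read 50.6, 62.0 and 50.2 CPM in DKO and 0.116 and 0 CPM in Six6KO, so reads of it were plentiful in the libraries labelled with Cre. Its reads totalled 1998 against 1, a ratio after scaling for depth of 973 (95% counting interval 174.5 to 38460).

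**Figure D1:**
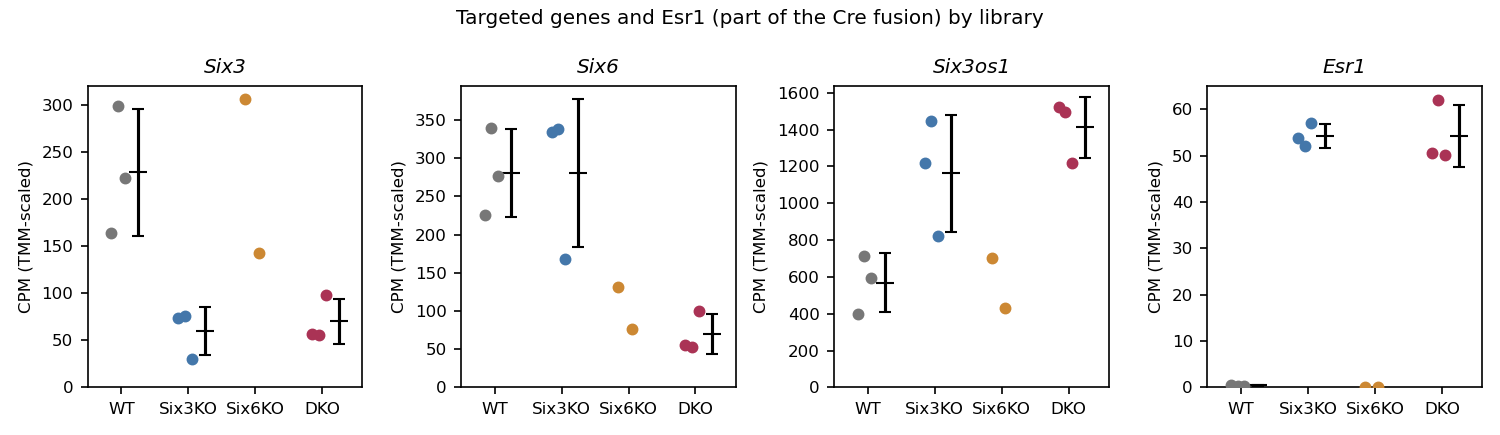
CPM of Six3, Six6, Six3os1 and Esr1 (vertical axes, linear) in each library by genotype; points are libraries, and the bars to their right are the mean ± SD of groups of 3. Six3 sits under 100 CPM in every DKO library, while Six6KO reads 142 and 307 CPM, and Esr1 is near 0 wherever Cre is absent.

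Over all genes, 31 of 13292 differed between DKO and Six6KO at an adjusted p under 0.05 (edgeR, all 11 libraries in 1 fit), which is 0.233% of the genes tested. Of these, 22 rose in DKO (0.166%), Esr1 of the Cre fusion among them, and 9 fell (0.0677%), and 20 of the 22 and all 9 differed at least 2 fold (0.15% and 0.0677% of all genes). The count depended on the processing. It was 1 without DKO library rh010 or without rh011, 77 without rh021, 3 without Six6KO library rh007 and 2 without rh020, and 671 by DESeq2 or 682 with only the 5 libraries in the fit. With the mesenchyme level of each library as a covariate 3 genes were called, of which 1 was among the 31. The direction of all 31 held in every one of these settings, so their values are given gene by gene below, while the number called is a property of the fit. The median log2 difference over all genes was -0.02, 53.1% of genes lay below 0, and the unadjusted p was under 0.05 for 1968 genes (14.8%; 6.24% higher and 8.57% lower). Groups that did not overlap were common, at 35.5% of all genes (DKO above in 16.8%, below in 18.6%), so a gap between the groups does not by itself set a gene apart. In bulk RNA, fewer cells of a type and less RNA per cell cannot be told apart.

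Several of the genes that rose encode transcription factors, and Dbx1, a homeodomain factor of interneuron progenitors in the spinal cord and forebrain, rose most among them. Dbx1 (chromosome 7, 49631499 to 49636849, minus strand) read 15.5, 15.2 and 8.01 CPM in DKO and 0 and 0.214 CPM in Six6KO. Its 473 reads against 2 gave a ratio of 115 after scaling for depth (95% counting interval 31.7 to 954), with an adjusted p of 0.0336 by edgeR. No library outside DKO passed 0.303 CPM, so Dbx1 was close to unread in the other 3 genotypes. Tfap2c, an AP-2 transcription factor, read 84.0, 108 and 61.3 CPM in DKO and 12.4 and 7.81 CPM in Six6KO (log2 3.06 ± 0.44, adjusted p = 0.0336). Its paralogues Tfap2a and Tfap2b, which specify amacrine and horizontal cells, lay on the other side. Tfap2b read 8.93, 10.02 and 19.1 CPM in DKO against 94.8 and 75.5 CPM in Six6KO, a difference that did not pass the threshold (log2 -2.74 ± 0.82, adjusted p = 0.191), and Tfap2a read 0.738 to 2.46 against 9.74 and 12.1 CPM (adjusted p = 0.168). Both were named after their values were seen. With the mesenchyme level as a covariate their differences shrank to -0.35 (Tfap2b) and -0.57 (Tfap2a).

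Zic1, a zinc-finger factor of the ciliary margin and the dorsal neural tube, read 379, 378 and 265 CPM in DKO and 136 and 89.2 CPM in Six6KO (log2 1.60 ± 0.23, adjusted p = 0.0336). Exons of Zic1 overlap those of Zic4 on the other strand, so a read there could be counted for either gene if strand was ignored. Zic4 read 38.4, 39.3 and 26.7 against 8.70 and 4.60 CPM (log2 2.39 ± 0.39, adjusted p = 0.0518), just outside the threshold. Zic2, named after its values were seen, also had all DKO libraries above Six6KO and missed the threshold (log2 1.06 ± 0.31, adjusted p = 0.183). Of these 3 genes, then, Zic1 alone passed the test. All had the same order of groups, as did 16.8% of all genes.

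Glis3, a Krüppel-like zinc-finger factor, read 130, 101 and 68.3 CPM in DKO and 33.5 and 28.7 CPM in Six6KO (log2 1.68 ± 0.23, adjusted p = 0.0336). Mab21l2, which is required for eye and lens development and is expressed in retinal progenitors, read 555, 551 and 465 against 259 and 190 CPM (log2 1.22 ± 0.18, adjusted p = 0.0336). The single exon of Mab21l2 lies in the locus of Lrba, on the other strand. Lmo3, a LIM-only cofactor of neural transcription complexes, read 23.3, 27.2 and 13.6 against 2.32 and 1.71 CPM, at least 5 times as high in each DKO library as in either Six6KO library (log2 3.40 ± 0.51, adjusted p = 0.0336). Trps1, a GATA-type repressor with a mean DKO level of 187 CPM, rose by 0.82 on the log2 scale, the smallest difference that passed, and was named after its values were seen.

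The genes that rose outside the transcription factors included membrane, adhesion and cytoskeletal proteins. Tmem132b, a single-pass membrane protein of neural tissue, read 194, 197 and 65.8 CPM in DKO and 10.2 and 5.14 CPM in Six6KO, with an adjusted p of 0.0336 and a log2 difference of 4.31 ± 0.61. Within DKO the low reading was that of rh021, which still lay over 6 times the higher Six6KO library. Filip1 (chromosome 9, 79815051 to 80012851, minus strand), which encodes a filamin-binding protein that controls neuronal migration, had the smallest adjusted p after Esr1 (0.0112), with 818, 794 and 535 CPM in DKO against 120 and 118 CPM in Six6KO (log2 2.59 ± 0.25). Erbb4, a neuregulin receptor of the EGF receptor family, read 125, 154 and 76.9 against 36.7 and 30.2 CPM (log2 1.83 ± 0.27, adjusted p = 0.0336).

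Axon guidance and adhesion genes were among these. Unc5c, a netrin receptor that mediates repulsion, read 120, 135 and 95.5 CPM in DKO and 61.0 and 40.3 CPM in Six6KO (log2 1.20 ± 0.19, adjusted p = 0.0485), and Cntn3, a contactin of the immunoglobulin superfamily, read 33.0, 36.4 and 34.7 against 14.7 and 10.7 CPM (log2 1.45 ± 0.21, adjusted p = 0.0336). The 3 Cntn3 readings in DKO lay close together (SD 1.71 CPM), with no low reading in rh021. Slit2, a repellent ligand in the ganglion cell list, had the same order of groups, 417 to 483 against 243 and 282 CPM, and did not pass (log2 0.81 ± 0.18, adjusted p = 0.111).

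Calb1, the calcium-binding protein calbindin that marks horizontal and amacrine cells, read 11.3, 10.4 and 7.45 CPM in DKO and 0.696 and 1.07 CPM in Six6KO (log2 3.44 ± 0.54, adjusted p = 0.0396). Car5b, a mitochondrial carbonic anhydrase encoded on the X chromosome, read 45.5, 41.7 and 32.9 against 1.97 and 3.53 CPM (log2 3.85 ± 0.58, adjusted p = 0.0336), and rh011, the DKO library with Y-linked reads, lay between the other two. Rmst, a long non-coding RNA that binds Sox2 and is expressed in midbrain and neural progenitors, read 629, 617 and 393 against 156 and 112 CPM (log2 2.03 ± 0.30, adjusted p = 0.0336). A730017C20Rik, Lrrc1 and Stxbp6, named after their values were seen, and Nudt4, Sh3bgrl2 and Plch1, named by the test of dependence on Six6 given further on, rose by 0.84 to 1.29 on the log2 scale. Nudt4, a diphosphoinositol polyphosphate phosphohydrolase, read 556, 609 and 610 CPM in DKO and 291 and 232 CPM in Six6KO (adjusted p = 0.0135).

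**Figure D2:**
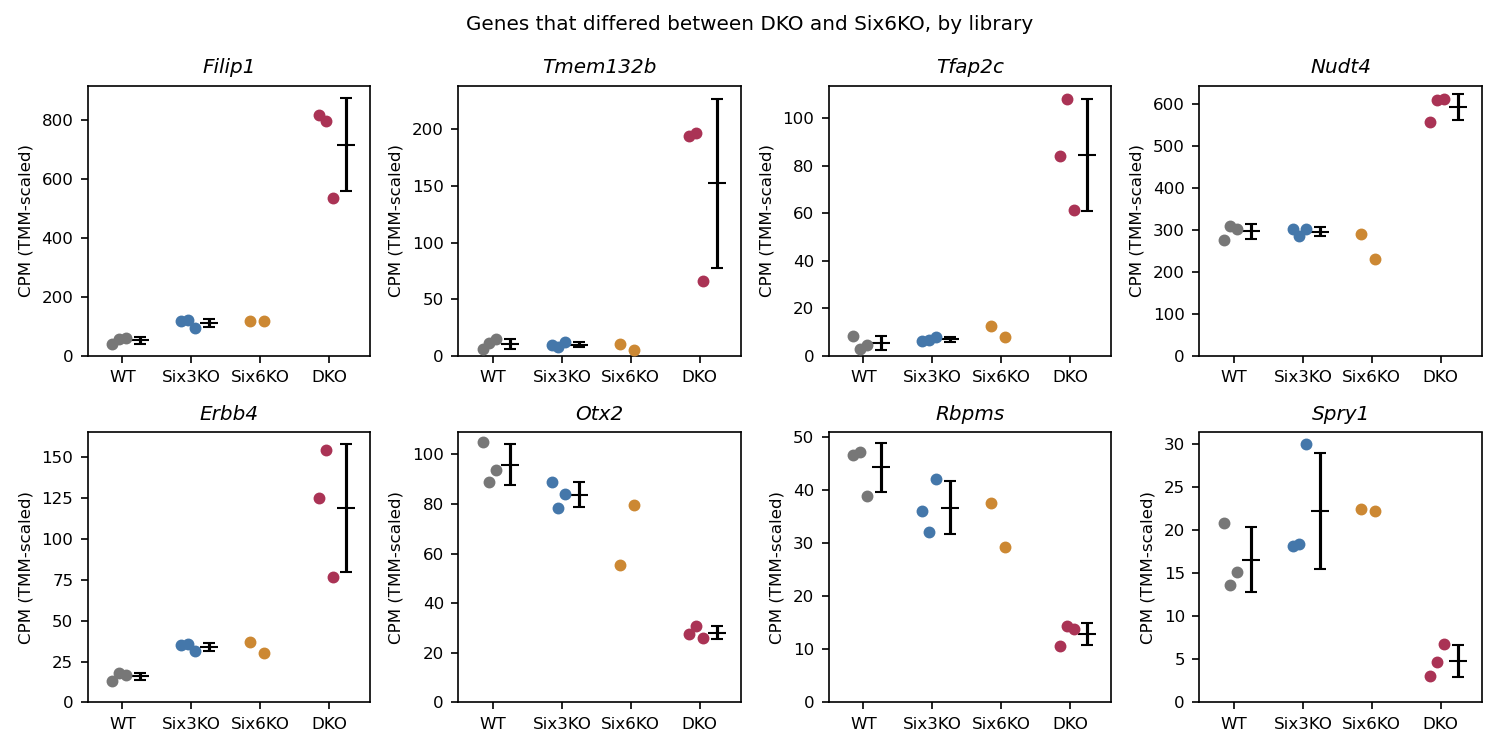
CPM (vertical axes, linear) of 5 genes that rose in DKO against Six6KO (Filip1, Tmem132b, Tfap2c, Nudt4, Erbb4) and 3 that fell (Otx2, Rbpms, Spry1), by library and genotype; bars are the mean ± SD of groups of 3. In each panel the 3 DKO points lie apart from the other 8 libraries, and in Tmem132b and Filip1 1 DKO point lies well under the other 2.

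Of the genes that fell, Otx2, the homeodomain factor that commits precursors to photoreceptor and bipolar fates and is expressed in the pigment epithelium, was the best read retinal regulator. Otx2 (chromosome 14, 48657677 to 48673819, minus strand) read 27.7, 30.8 and 25.9 CPM in DKO and 55.6 and 79.6 CPM in Six6KO, a fall of 2.40 fold (log2 -1.27 ± 0.16, adjusted p = 0.027). It overlaps the antisense transcript Otx2os1. Of the 10 photoreceptor precursor genes tested, Otx2 included, 8 lay below 0 and 2 above. Rxrg read 1.07, 2.07 and 1.35 CPM in DKO against 4.18 and 5.14 CPM in Six6KO and did not pass (log2 -1.63 ± 0.51, adjusted p = 0.205, edgeR). Crx, named after its values were seen, stood at 7.54, 4.14 and 12.4 against 16.2 and 9.41 CPM, and the groups overlapped (adjusted p = 0.647). Thrb, a thyroid hormone receptor of cone precursors also named after its values were seen, lay the other way, at 58.9, 57.6 and 52.2 against 38.4 and 42.3 CPM (log2 0.48 ± 0.23, adjusted p = 0.373). Rbpms, an RNA-binding protein used as a ganglion cell marker, fell from 37.6 and 29.3 CPM in Six6KO to 10.6, 14.3 and 13.9 CPM in DKO (log2 -1.37 ± 0.18, adjusted p = 0.0297).

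Spry1, a feedback inhibitor of FGF receptor signalling, read 3.03, 4.72 and 6.74 CPM in DKO against 22.4 and 22.2 CPM in Six6KO (log2 -2.20 ± 0.34, adjusted p = 0.0371). Its paralogue Spry4 read 3.69, 4.64 and 3.96 against 22.04 and 12.3 CPM (log2 -2.06 ± 0.38, adjusted p = 0.0716), and Etv5, an FGF-induced ETS factor named after its values were seen, read 19.02, 14.99 and 31.7 against 75.4 and 43.4 CPM (log2 -1.44 ± 0.31, adjusted p = 0.108). Only Spry1 passed the test. In all 3 genes every DKO library was below both Six6KO libraries, an order found in 18.6% of all genes. Of 18 FGF/MAPK feedback genes 10 had this order and 2 the reverse. Ptprt, a receptor tyrosine phosphatase of neurons, was read at 3.03, 3.31 and 3.01 CPM in DKO and 18.4 and 18.3 CPM in Six6KO (log2 -2.55 ± 0.34, adjusted p = 0.0297).

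Egflam, which encodes pikachurin, a matrix protein of the photoreceptor synapse, fell from 13.46 and 12.7 CPM in Six6KO to 3.44, 2.57 and 3.57 CPM in DKO (log2 -2.03 ± 0.27, adjusted p = 0.0297). Pcdh1, a protocadherin, fell from 30.5 and 23.0 CPM to 6.97, 10.52 and 10.2 CPM (log2 -1.54 ± 0.23, adjusted p = 0.0336), and Ttyh2, a membrane protein of the tweety family, from 20.1 and 23.4 CPM to 9.43, 9.61 and 10.9 CPM (log2 -1.12 ± 0.14, adjusted p = 0.0278). Col13a1, a transmembrane collagen, and Lrfn5, a synaptic adhesion molecule, also fell; they averaged under 5 CPM over the 5 libraries and were named after their values were seen. Col13a1 read 0.164 to 0.476 CPM in DKO and 4.71 and 4.87 CPM in Six6KO. The 29 mesenchyme genes were also lower in DKO, and with the mesenchyme level as a covariate 0 genes were called lower, though all 9 stayed below 0. In that fit Otx2 stood at -1.10, Rbpms at -1.21, Ttyh2 at -1.01 and Spry1 at -1.58, with adjusted p from 0.151 to 0.215. With the lens level as the covariate Otx2 stood at -1.20 and Rbpms at -1.44 (adjusted p = 0.107 for both, edgeR), and 0 genes were called lower.

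Of the genes next in order below Six6KO, 8 missed the threshold. Irx3, an Iroquois homeodomain factor, read 1.89, 4.14 and 3.89 CPM in DKO and 33.2 and 24.8 CPM in Six6KO (log2 -3.13 ± 0.56, adjusted p = 0.0712). Frem1, a basement membrane protein of epithelia and mesenchyme, read 3.93 to 8.45 against 74.9 and 79.3 CPM (log2 -3.57 ± 0.65, adjusted p = 0.0742). Tle3, a Groucho-type corepressor, read 41.2, 43.8 and 56.5 against 154 and 91.7 CPM (log2 -1.38 ± 0.25, adjusted p = 0.0716). Olfml2b, Fam174b, Hist1h2al and Tecr, with adjusted p from 0.0526 to 0.0602, had log2 differences from -0.74 to -1.78.

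**Figure D3:**
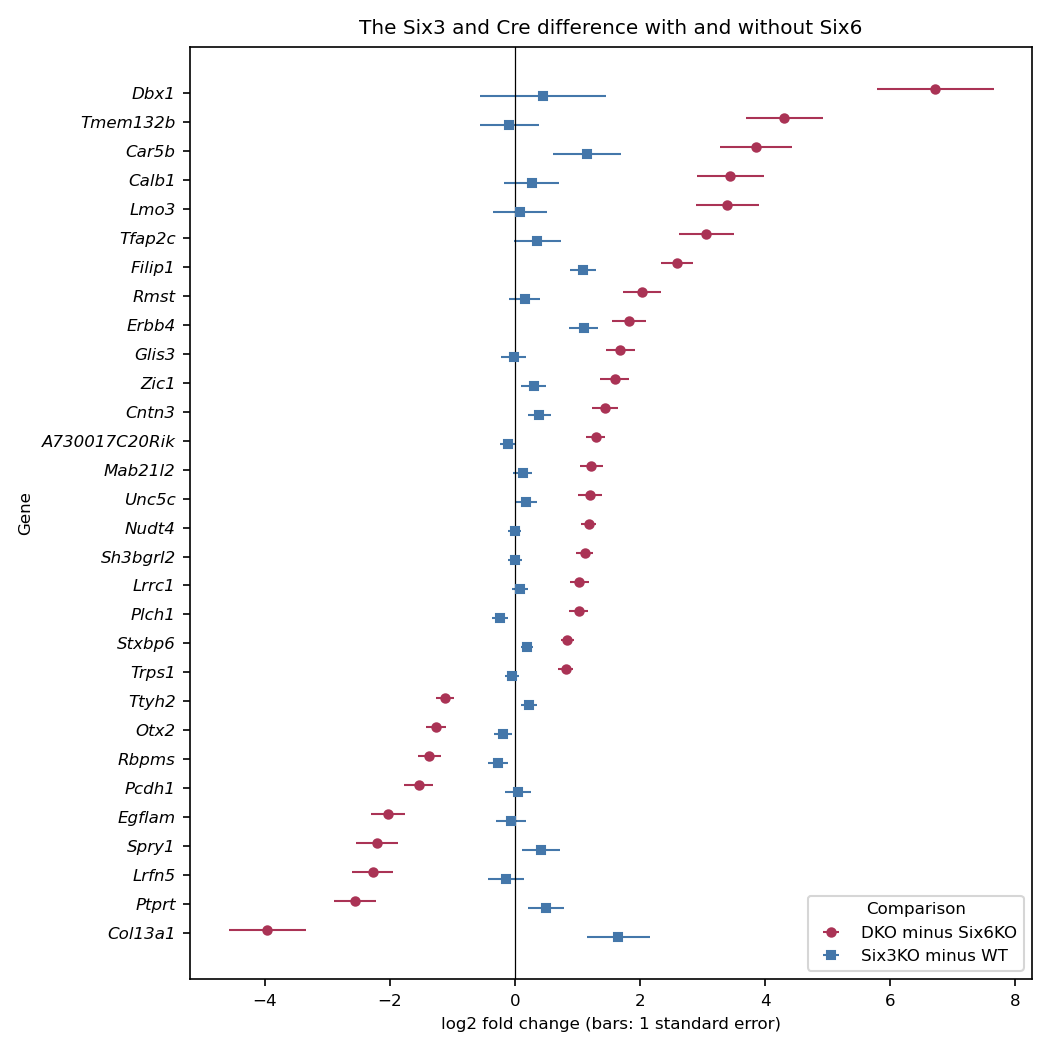
Log2 difference (horizontal axis; bars, 1 standard error) of 30 of the 31 called genes (vertical axis; Esr1, part of the Cre fusion, is left out), in DKO minus Six6KO and in Six3KO minus WT. The DKO minus Six6KO values run from -3.96 (Col13a1) to 6.73 (Dbx1), and most Six3KO minus WT values lie near 0.

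The promoters of these genes were searched for the hexamer TGATAC, which homeodomains of this family bind in vitro, and for the homeodomain core TAATTA, which is its own reverse complement. Sequences are from RefSeq on GRCm38.p6, and the 250 bases before each start were searched on both strands. TGATAC was in 1 of the 23 promoters of 17 matched genes that rose, that of Cntn3, and in 0 of the 11 promoters of 7 matched genes that fell, beside 4.6% of all 32851 promoters and 2.6% of the 13046 promoters of tested genes. TAATTA was in 2 of the 23, both of Filip1, and in 2 of the 11, those of Otx2, beside 4.8% of all promoters and 2.4% of those of tested genes. Esr1, part of the Cre fusion, is counted among the 17 genes that rose, and its own promoters held neither hexamer. A match is a description of letters in the window and not a bound site. The fragments shown are those of the matches outside annotated exons; the other Otx2 promoter holds 3 matches in a stretch that overlaps an Otx2 exon and is not shown. Each is 50 bases on the minus strand of the genome, 5′ to 3′, and capitals mark the motif.
Otx2, chr14:48667758-48667807, 141 bases before the start: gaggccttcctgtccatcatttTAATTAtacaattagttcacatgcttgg
Filip1, chr9:80012855-80012904, 31 bases before the start: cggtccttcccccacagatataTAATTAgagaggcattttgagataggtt
Filip1, second start, chr9:79977998-79978047, 143 bases before it: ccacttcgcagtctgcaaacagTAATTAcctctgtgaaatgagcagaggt
Cntn3, chr6:102464720-102464769, 80 bases before the start: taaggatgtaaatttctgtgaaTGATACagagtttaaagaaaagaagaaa

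The same contrast of Cre and Six3 was read with Six6 intact, in Six3KO against WT, from 6 libraries that share none with DKO or Six6KO. Esr1 alone was called there (0.00752% of 13292 genes, with 465 genes at an unadjusted p under 0.05 and 19 called by DESeq2). The unadjusted count is 3.5% of all genes. Of the 22 genes that rose in DKO, 15, Esr1 included, had a log2 above 0 in Six3KO against WT (beside 48.6% of all genes), with a median of 0.17, and the median of the 9 that fell was 0.06. Beside Esr1, an unadjusted p under 0.05 was reached by Filip1 (1.09 ± 0.21 SE), Erbb4 (1.10 ± 0.23) and Col13a1 (1.65 ± 0.51), with p of 0.00042, 0.00089 and 0.009, and none of the 3 was called. Col13a1 thus lay above WT in Six3KO, opposite to its fall in DKO against Six6KO. Car5b stood at 1.15 ± 0.55. For Filip1 the mean level was 52.5 CPM in WT, 112 CPM in Six3KO, 119 CPM in Six6KO and 716 CPM in DKO. Erbb4 read a mean of 15.9, 34.0, 33.4 and 119 CPM in the same order, so both genes had higher means in each single mutant than in WT and the highest in DKO. Every single mutant library was above every WT library in 4 of the 22 genes (Filip1, Erbb4, Car5b and Zic1), beside 1.15% of all genes. For Car5b and Zic1 the gap was narrow. The lowest single mutant and highest WT libraries read 1.46 and 1.41 CPM for Car5b, and 89.22 and 88.95 CPM for Zic1. Means in the same order were 0.72, 1.74, 2.75 and 40.0 CPM for Car5b and 80.5, 99.0, 112 and 341 CPM for Zic1.

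Nudt4, Glis3 and Tmem132b had like means in WT and both single mutants. Nudt4 averaged 296 CPM in WT, 296 CPM in Six3KO, 261 CPM in Six6KO and 592 CPM in DKO. Glis3 averaged 26.1, 25.7, 31.1 and 99.8 CPM in that order, and Tmem132b 10.8, 10.05, 7.67 and 152 CPM. Otx2 took a different course and averaged 95.8, 83.8, 67.6 and 28.1 CPM. Its highest Six3KO library (88.75 CPM) all but met the lowest WT library (88.81 CPM). The log2 difference of Six3KO minus WT was -0.19 ± 0.14 (unadjusted p = 0.197, edgeR), so a fall in Six3KO was not shown. The test of whether the difference depended on Six6, (DKO minus Six6KO) minus (Six3KO minus WT), called 0 genes by edgeR (0%; smallest adjusted p 0.14, 1328 genes, or 9.99%, at an unadjusted p under 0.05) and 241 by DESeq2, and 3 by edgeR without DKO library rh021. Among the genes named by rule, Nudt4 (1.18 ± 0.16), Ttyh2 (-1.35 ± 0.19) and Ptprt (-3.05 ± 0.45) had the smallest unadjusted p of that test. Since these genes were chosen by their DKO minus Six6KO difference, which this test contains, the values are given as a description.

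DKO library rh021 was the lowest of the 3, and so the nearest to Six6KO, in 20 of the 22 genes that rose. It was the lowest of the 3 in 40.2% of all genes tested, on whichever side Six6KO lay. It was also the DKO library with the most Six3 reads left. In Dbx1 it stood at 8.01 CPM against 15.2 and 15.5 CPM, and in Tmem132b at 65.8 CPM against 194 and 197 CPM. Among the 9 genes that fell it was the highest of the 3, and so the nearest, in 5. It was the highest in 37.8% of all genes. Whether the residual Six3 reads and these levels are linked was not tested, with 3 libraries.

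WT libraries also differed in mesenchyme content, and rh023 had the least. Its mesenchyme score, the mean log2 CPM of the list relative to Six6KO, was -3.33, within the DKO range of -4.05 to -3.23, although its Col1a1 (126 CPM) and Col1a2 (106 CPM) were above those of every DKO library. Filip1, Dbx1 and Tfap2c read 56.4, 0.116 and 2.78 CPM in rh023, against at least 535, 8.01 and 61.3 CPM in DKO. Otx2 and Rbpms read 88.8 and 47.3 CPM there, against at most 30.8 and 14.3 CPM in DKO. Other called genes lay closer. The DKO library nearest to rh023 differed from it 1.15 fold in Unc5c, 1.32 fold in Plch1 and 1.31 fold in Ttyh2. Whether mesenchyme content and the levels of the called genes are linked was not tested with this 1 WT library.

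Gene lists are given beside the shares of all 13292 genes tested. edgeR called 0.166% of these higher and 0.0677% lower, with 6.24% higher and 8.57% lower at an unadjusted p under 0.05. DESeq2 called 307 higher and 364 lower. Among 25 retinal progenitor genes edgeR called 1 higher (Mab21l2) and 0 lower (6 higher and 2 lower unadjusted, DESeq2 3 and 1), with a median log2 of -0.00 whose sign changed under other scaling. Meis1, a TALE cofactor of eye development, had DKO libraries at 379 to 423 CPM against 187 and 260 CPM in Six6KO and did not pass (log2 0.86 ± 0.20, adjusted p = 0.123). Ccnd1, the main D cyclin of retinal progenitors, read 210, 204 and 584 against 1345 and 637 CPM (log2 -1.57 ± 0.56, adjusted p = 0.245), and was named after its values were seen.

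Differentiation lists are read against the same shares, 0.233% of all genes called by edgeR in either direction and 14.8% at an unadjusted p under 0.05. Of 25 neurogenic and Notch genes 0 were called by edgeR in either direction (median log2 -0.43, 4 lower at an unadjusted p under 0.05, DESeq2 2 lower), and Lfng, a Notch modifier, read 7.46, 9.44 and 13.4 CPM in DKO against 26.3 and 19.9 CPM in Six6KO (adjusted p = 0.114). Of 25 ganglion cell genes 1 fell (Rbpms; 2 higher and 1 lower unadjusted, DESeq2 1 and 1; median -0.13, positive without Six6KO library rh007). Of 10 photoreceptor precursor genes 1 fell (Otx2; 3 lower unadjusted, DESeq2 1 lower; median -0.90), and their summed level was 102 to 114 CPM in DKO, 155 and 161 CPM in Six6KO and 278 to 394 CPM in WT. Of 18 amacrine and horizontal cell genes 2 rose by edgeR (Tfap2c and Calb1; 4 higher and 7 lower unadjusted, DESeq2 3 higher and 4 lower), while the list's median was -0.30 and Tfap2a and Tfap2b lay below Six6KO; this median turned positive without rh007.

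The patterning lists had 3 calls by edgeR, all higher in DKO. Among 24 ciliary margin genes 1 rose by edgeR (Zic1; median 0.29, 8 higher and 3 lower at an unadjusted p under 0.05, DESeq2 8 higher and 1 lower), and the median was -0.06 without rh007. Their summed level was 2450 to 3620 CPM in DKO, above 1860 and 1930 CPM in Six6KO. Among 18 neural tube and forebrain regulators 2 rose (Dbx1 and Lmo3), 3 were higher and 8 lower at an unadjusted p under 0.05 (DESeq2 3 and 5) and the median was -2.35; Rfx4, a factor of the neural tube named after its values were seen, read 20.1, 28.6 and 6.42 CPM in DKO and 1.62 and 0.535 CPM in Six6KO (adjusted p = 0.0958). Of 22 Wnt ligand and feedback genes edgeR called 0 (median -0.83, 1 higher and 4 lower at an unadjusted p under 0.05; DESeq2 1 higher and 1 lower), and Wnt3a and Dkk2 lay on opposite sides, at 2.65 ± 0.75 and -5.37 ± 1.56. The medians of the neural tube and Wnt lists turned positive with the mesenchyme covariate. Wnt3a read 9.43, 10.1 and 5.47 CPM in DKO against 0.696 and 1.93 CPM, while Axin2, a feedback target named after its values were seen, read 72.9, 77.9 and 32.6 against 41.8 and 43.2 CPM and overlapped.

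Of 18 FGF/MAPK feedback genes 1 fell (Spry1; median -0.56, 2 higher and 9 lower at an unadjusted p under 0.05, DESeq2 5 lower). Of 19 BMP/TGF-beta feedback genes edgeR called 0 (median -0.33; 3 lower and 1 higher unadjusted, DESeq2 3 lower and 1 higher), and Id1, a BMP target, read 23.2, 15.8 and 33.3 CPM in DKO against 44.9 and 74.8 CPM (adjusted p = 0.137). The 12 Hedgehog targets had 0 calls (median -0.32; 6 lower and 2 higher unadjusted, DESeq2 4 lower and 1 higher). In that list Cdon, a Hedgehog co-receptor, read 1158, 1131 and 801 CPM in DKO and 516 and 390 CPM in Six6KO (log2 1.19 ± 0.27, adjusted p = 0.111). The 10 optic stalk genes had 0 calls (median -0.58; 3 lower unadjusted, DESeq2 1 lower), with the guidance ligand Ntn1 at 0.492, 2.07 and 2.06 CPM against 23.0 and 21.6 CPM (adjusted p = 0.143). The 16 dorsal and ventral retina genes had 0 calls and a median of -0.05 (1 higher and 2 lower unadjusted, DESeq2 1 and 1), and Tbx2, a dorsal T-box factor, read 53.4, 47.7 and 69.8 against 107 and 111 CPM (adjusted p = 0.145).

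Cell cycle and stress lists had 0 calls by edgeR throughout. The 26 S phase genes had a median of -0.23, 23 of 26 lay below 0 and 5 were lower at an unadjusted p under 0.05 (DESeq2 1 lower); Tk1 read 13.9, 15.7 and 17.8 CPM in DKO against 23.1 and 28.9 CPM (adjusted p = 0.128). Mitosis genes, 25 in number, centred on a median of 0.00, with 0 at an unadjusted p under 0.05 and 0 by DESeq2, and the sign changed with either covariate. The 14 genes of cell cycle exit and D cyclins had a median of 0.09 (1 higher and 3 lower unadjusted, DESeq2 1 and 1), and Cdkn1c, a cyclin-dependent kinase inhibitor, read 99.8, 125 and 112 CPM against 260 and 490 CPM (adjusted p = 0.168). The 21 p53 targets and apoptosis genes had a median of -0.00 (1 higher unadjusted, DESeq2 0), a sign that changed under other scaling. Eda2r, a p53 target, read 15.98, 22.3 and 3.73 against 1.51 and 5.03 CPM and overlapped (adjusted p = 0.239). With Six6 intact, Eda2r averaged 17.9 CPM in Six3KO and 2.79 CPM in WT. That log2 difference was 2.67 ± 0.63 (unadjusted p = 0.002, edgeR) and was not called. The median of the p53 list in Six3KO against WT was 0.395, beside -0.005 over all genes. The 13 immediate early genes had a median of -0.71 (5 lower unadjusted, DESeq2 3 lower) and the 19 hypoxia and glycolysis genes -0.00 (4 lower unadjusted, DESeq2 1 lower), whose sign also changed under other scaling. The median of the cell cycle exit list turned negative without Six6KO library rh020.

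**Figure D4:**
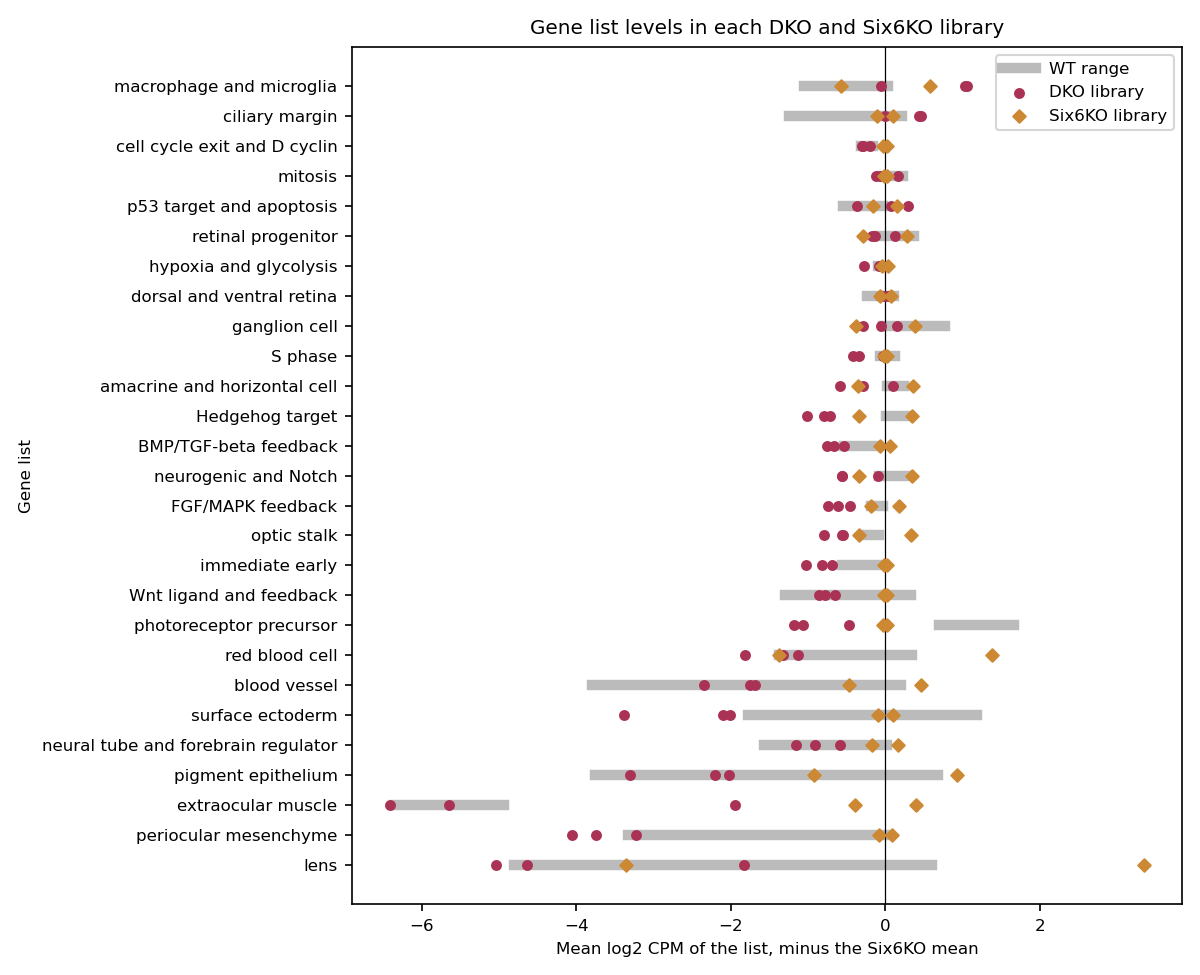
Mean log2 CPM of each gene list minus the Six6KO mean (horizontal axis) for each DKO and Six6KO library, with the range of the 3 WT libraries as a grey bar. Lists are ordered on the vertical axis by the median log2 difference of their genes, DKO against Six6KO. Most lists of non-retinal tissue are at the bottom, with the neural tube and forebrain list among them, and spread over several log2 units. The macrophage list is at the top. DKO and Six6KO points of the lists of retinal cell types lie within 1.18 units of 0, and the WT range of photoreceptor precursors reaches 1.66.

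The lists of tissue that a dissection can leave on the retina had medians far from 0, macrophages apart, and edgeR called 0 of their members. The 29 periocular mesenchyme genes were all below 0. Every DKO library was under both Six6KO libraries in all 29, an order found in 18.6% of all genes. Their median was -4.33, with 24 lower at an unadjusted p under 0.05 and 19 lower by DESeq2. Fewer such reads were present also for blood vessel (18 genes, median -1.98; 5 lower unadjusted, DESeq2 3 lower), surface ectoderm (19 genes, -2.30; 9 and 5), pigment epithelium (15 genes, -3.60; 7 and 1) and extraocular muscle genes (16 genes, -3.77; 10 and 0). The medians of these 5 lists turned positive with the mesenchyme covariate, which is the score of the first of them. Extraocular muscle genes summed to 23.6 to 60.8 CPM in WT, 10.1 to 1140 CPM in DKO and 2570 and 2690 CPM in Six6KO. DKO scores lay within the WT range for blood vessel (-2.34 to -1.69, WT -3.8 to 0.207) and pigment epithelium (-3.3 to -2.02, WT -3.76 to 0.681). They lay below it for surface ectoderm (-3.38 to -2.01, WT -1.78 to 1.18). The 21 lens genes had a median of -5.95 (15 lower unadjusted, DESeq2 4 lower), which was 1.21 without Six6KO library rh020, and the 6 red blood cell genes a median of -1.88 (3 and 2), which was 0.09 without rh020. Macrophage and microglia genes were the exception, with a median of 0.77 over 18 genes (2 higher unadjusted, DESeq2 0), and Cx3cr1, the microglial fractalkine receptor, read 27.4, 25.3 and 10.8 CPM in DKO against 8.47 and 8.35 CPM in Six6KO (adjusted p = 0.233).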

How the data were processed

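Total RNA, with ribosomal RNA removed, was sequenced from 11 libraries, for which the authors deposited raw gene-level counts. Per the submitters' processing notes, the tools were Trim Galore 0.3.7, TopHat2 2.0.13, HTSeq 0.6.1, Cufflinks 2.2.1 and Cuffdiff, with mm10; the sources used here give neither the strand setting nor the annotation. Counts were tested with edgeR 4.0.16 (R 4.3.3, limma 3.58.1): filterByExpr (minimum count 10), TMM scaling, robust quasi-likelihood fit over all 4 groups, Benjamini-Hochberg adjustment over 13292 of 13498 genes, threshold 0.05. DESeq2 1.42.0, other scaling, no filter, covariates and left-out libraries were alternatives. Members and lists were chosen with earlier results of these data known. Named genes were the targets, up to 15 called genes per direction of at least 5 CPM with no overlap (places left went to the smallest p), 2 members per list and 5 genes by interaction; others are marked as named after their values were seen. Intervals cover counting error only, at 95%. p-values measure the spread between these libraries, whose columns carry no replicate numbers. Library pairs of 1 group differed by 9.58 to 51.7 times sampling noise (chi-square per degree of freedom), so none was a duplicate. In 3 simulations of this comparison, the fit recovered 40.7% of 2-fold changes and 82% of 4-fold changes, with 5 to 8 false calls among 13260 to 13268 genes. Each simulation held 200 changed genes of up to 16 fold, where the real comparison called 31. In the data Frem1 and Col1a1 missed the threshold at log2 -3.57 and -4.49, so these recovery rates may be too high for the real comparison. Positions and overlaps are from GENCODE vM21 (GRCm38), in which 13015 symbols (97.9%) matched 1 gene.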

Additional observations from a re-analysis of the deposited data

How the results depend on the processing

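All 31 called genes kept their direction under every alternative run. All 31 also kept their call with relative log expression size factors (34 genes called), with no composition factor (42), with no low-count filter (31), with the 2 compared groups alone (682, of which 149 higher and 533 lower), by DESeq2 (671, 307 and 364) and without Six3KO library rh026, an alternative added after seeing the data (75, 42 and 33). At an adjusted p under 0.1, 117 genes were called, 72 higher and 45 lower. The mesenchyme covariate left 3 calls, 3 higher and 0 lower, the lens covariate 2 (2 and 0), and both together, added after seeing the data, 2 (2 and 0). Leaving out 1 library gave 1 to 77 calls, 1 to 50 higher and 0 to 27 lower. DESeq2 called 19 genes in Six3KO against WT and 241 in the interaction, where edgeR without rh021 called 3. With the mesenchyme covariate the log2 difference changed sign for Slc45a2 (0.742), Rlbp1 (0.523), Myf6 (5.09), Tnnt2 (0.285) and Thrb (-0.161), and with both covariates for Dkk2 (0.0886), Cenpf (-0.118), Slc45a2 (0.423), Rlbp1 (0.507), Myf6 (5.42), Tnnt2 (0.723) and Thrb (-0.201). Leaving out 1 library moved Hbb-bh1 from -4.63 (without Six6KO rh007) to 0.0745 (without Six6KO rh020). edgeR called none of these genes with all libraries, DESeq2 called Dkk2, Slc45a2 and Hbb-bh1 lower (adjusted p = 0.00873, 0.015 and 0.0308), and the cause was not tested. No paired analysis was possible because the columns carry no replicate numbers. With 2 Six6KO libraries, depth and number limit what can be seen, and genes that missed the threshold are not shown to be unchanged.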
